A study of Homo sapiens with 6 samples.

Results

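The regions described here are the H3K27ac peaks of MV4-11 control cells that came apart into separate peaks after knockdown of ANP32B. The members were chosen by both MV4-11 peak lists: a peak of the NC list was taken when it overlapped 2 or more separate peaks of the sh-ANP32B list, each by at least 1 base. On chromosomes 1 to 22 and X, 1179 of 24491 MV4-11 NC peaks met this rule, which is 4.81%. Because the rule used the MV4-11 lists, the number of pieces and the bases lost in MV4-11 describe how the members were chosen and are no finding, whereas the gene annotation, the DNA sequence and the Kasumi-1 lists were not used by it.

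H3K27ac was profiled by CUT&Tag, in which an antibody brings a transposase to the marked chromatin and the DNA cut there is sequenced, in 2 human acute myeloid leukemia (AML) cell lines. MV4-11 is a monocytic line with a KMT2A fusion and Kasumi-1 is a line with the RUNX1::RUNX1T1 fusion. Each line was studied with a control short hairpin RNA (NC, called untreated in the treatment label) and with a hairpin against ANP32B (sh-ANP32B, the knockdown), and each of these 4 groups has 1 peak list. The study used 3 hairpins against ANP32B, and the labels do not say which one these libraries carry. Another 2 samples, IgG controls of both lines, are not analysed here. Replicates were merged before the peaks were called, so no spread between replicates can be given, no test of the knockdown was possible, and all differences describe these lists only. The lists hold positions and widths without peak heights or read totals, so the depth behind each peak is unknown.

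Acetylation of lysine 27 of histone H3 is carried by nucleosomes next to active promoters and enhancers. The start of transcription of an active gene usually lies in a short stretch that is poor in nucleosomes, with acetylated nucleosomes on both sides, and at active enhancers the stretch bound by transcription factors lies between marked nucleosomes in the same way. A peak caller draws 1 peak across such a valley when the signal stays over its threshold, and several when it does not. ANP32B is an acidic nuclear protein of the ANP32 family, which binds histones.

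The cell lines were first checked against marker genes, counting a gene when a peak lay within 2500 bases of its canonical start. Of 8 markers of MV4-11, 5 had such a peak in the MV4-11 NC list (HOXA9, HOXA10, MEIS1, FLT3 and LYZ) and 4 in the MV4-11 sh-ANP32B list, where FLT3 had none. PBX3, CSF1R and ITGAM had none in either MV4-11 list. Of 5 markers of Kasumi-1, the defining genes RUNX1T1, POU4F1, KIT and MPO had none in any list, and CD34 had one in both Kasumi-1 lists. The Kasumi-1 lists also held peaks at 6 of the 8 MV4-11 markers, HOXA9 among them. LYZ had a peak in the MV4-11 lists only. CD34 was the single Kasumi-1 marker that set the lists apart, with 180 covered bases in Kasumi-1 NC and 132 in sh-ANP32B. The markers thus went both ways and do not settle the identity of the lines, which are named here as the labels give them.

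Both MV4-11 lists differed as a whole. The NC list held 24491 peaks with a median width of 815 bases and the sh-ANP32B list 22112 with a median of 742 bases, and they covered 27868037 and 22986568 bases. The shortest gap between neighbouring peaks was 290 bases in the NC list and 276 in the sh-ANP32B list, against 358 and 355 in the Kasumi-1 lists, so that gaps below these lengths were bridged by the caller. Of the 1311 inner gaps of the members, 105 (8.01%) were shorter than 290 bases and could not have stood in the NC list. The part of these differences in the splits was not tested.

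The sequences inside the gaps are shown first. In 80 of the 384 promoter members (20.8%) the start of transcription itself lay in a gap. The stretches below are the part of such a gap just upstream of the canonical start (GENCODE v44, build hg38), at most 200 bases long, read along the gene's strand and free of annotated exons. Capitals mark matches of the motifs listed further below, on either strand. They come from genes of the fixed gene lists or from the promoters with the longest such gaps: DNAJB6 (chr7:157336774-157336965, plus strand), a co-chaperone of HSP70; RAN (chr12:130871837-130872036, plus strand), the GTPase of nuclear transport; EGLN2 (chr19:40799049-40799190, plus strand), a prolyl hydroxylase that acts on hypoxia-inducible factor; TCP1 (chr6:159789704-159789811, minus strand), a subunit of the chaperonin CCT; MCL1 (chr1:150579739-150579875, minus strand), an anti-apoptotic BCL2 family protein; and CEBPE (chr14:23119256-23119455, minus strand), a transcription factor of granulocyte maturation.
DNAJB6: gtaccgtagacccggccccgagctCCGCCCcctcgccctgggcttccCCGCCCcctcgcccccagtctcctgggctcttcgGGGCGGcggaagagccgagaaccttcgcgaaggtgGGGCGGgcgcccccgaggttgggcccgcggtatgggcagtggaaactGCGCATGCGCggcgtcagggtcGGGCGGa
RAN: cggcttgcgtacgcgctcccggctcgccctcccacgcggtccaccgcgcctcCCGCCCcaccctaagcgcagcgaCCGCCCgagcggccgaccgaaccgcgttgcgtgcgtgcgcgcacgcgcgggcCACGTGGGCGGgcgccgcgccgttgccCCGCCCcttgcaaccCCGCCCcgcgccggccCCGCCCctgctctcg
EGLN2: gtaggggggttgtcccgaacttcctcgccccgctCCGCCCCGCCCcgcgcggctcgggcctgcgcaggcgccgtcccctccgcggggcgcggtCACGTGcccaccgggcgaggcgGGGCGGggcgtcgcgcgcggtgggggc
TCP1: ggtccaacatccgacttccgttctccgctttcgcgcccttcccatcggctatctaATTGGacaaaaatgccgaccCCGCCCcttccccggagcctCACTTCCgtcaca
MCL1: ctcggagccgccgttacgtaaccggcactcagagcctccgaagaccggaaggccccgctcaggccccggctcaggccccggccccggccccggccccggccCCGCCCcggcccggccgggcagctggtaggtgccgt
CEBPE: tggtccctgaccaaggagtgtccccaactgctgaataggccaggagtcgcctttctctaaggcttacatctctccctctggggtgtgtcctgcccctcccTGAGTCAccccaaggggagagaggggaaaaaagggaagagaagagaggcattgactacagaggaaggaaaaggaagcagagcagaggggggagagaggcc
The CEBPE stretch stood apart by its few CpGs. The CEBPE stretch held 1 CpG and 57.0% GC, with a match of the AP-1 site TGAGTCA. The TCP1 stretch had 59.3% GC and 10 CpGs, with a CCAAT box, an ETS-type GGAAGTG and a GC box. The other 4 had 75% to 83.8% GC and 18 to 40 CpGs, and each held at least 1 GC box (GGGCGG, the core of the site of SP factors).

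For contrast, the middle of the widest gap is shown for 3 of the members away from promoters that lost the most bases to inner gaps. They are NACC2 (chr9:136047645-136047844, plus strand), in intron 2 of a gene for a transcriptional repressor with a BTB domain; VAC14 (chr16:70748173-70748372, plus strand), in intron 12 of a gene for a scaffold of the PIKFYVE lipid kinase; and a region between genes with GNAS, which codes for a G protein subunit, as the nearest start (chr20:58812731-58812930, plus strand).
NACC2: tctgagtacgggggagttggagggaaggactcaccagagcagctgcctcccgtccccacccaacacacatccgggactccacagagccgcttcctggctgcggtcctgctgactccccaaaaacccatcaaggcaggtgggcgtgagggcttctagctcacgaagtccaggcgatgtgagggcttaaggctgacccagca
VAC14: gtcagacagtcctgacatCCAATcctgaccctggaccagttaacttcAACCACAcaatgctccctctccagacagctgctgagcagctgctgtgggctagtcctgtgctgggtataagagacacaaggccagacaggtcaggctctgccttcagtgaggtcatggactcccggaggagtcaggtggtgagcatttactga
GNAS: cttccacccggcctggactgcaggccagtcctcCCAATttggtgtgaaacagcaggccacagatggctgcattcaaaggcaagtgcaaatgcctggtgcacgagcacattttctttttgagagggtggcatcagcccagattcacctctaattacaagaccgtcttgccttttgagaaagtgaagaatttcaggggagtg
These 3 held between 51.0% and 62.0% GC, with 8 CpGs in the NACC2 stretch, 1 in VAC14 and 3 near GNAS. No GC box was found in them. VAC14 held a CCAAT box and the RUNX-type site TGTGGTT, the GNAS stretch held a CCAAT box, and NACC2 none of the motifs.

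Most members broke once. 1061 of the 1179 (89.99%) overlapped exactly 2 sh-ANP32B peaks, 105 overlapped 3, 12 overlapped 4, and 1, at ZBTB7B, overlapped 5. Of the other NC peaks, 7121 (29.1% of all 24491) met no sh-ANP32B peak and 16191 met exactly 1. The reverse also occurred: 458 of 22112 sh-ANP32B peaks (2.07%) spanned 2 or more NC peaks. In Kasumi-1, 639 of 22724 NC peaks (2.81%) were split by the sh-ANP32B list and 623 of 23833 sh-ANP32B peaks (2.61%) spanned several NC peaks, so that splits and joins were close in number there and splits outnumbered joins in MV4-11. With all lists joined across gaps of up to 358 bases, the MV4-11 numbers were 899 splits and 397 joins and the Kasumi-1 numbers 611 and 631. With joining across 500 bases they were 720 and 290 in MV4-11 and 384 and 542 in Kasumi-1.

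Just inside the rule, the smallest piece overlapped its NC peak by 1 base in an intron of VMP1, a gene of autophagosome formation, and by 4 bases at RASSF4, FTH1, ATP6V0A1 and MYO7B. Just outside it, a second sh-ANP32B peak lay 5 bases beyond the NC peak at PSTPIP2, 8 at SYNE3, 10 at SRGAP2C, 11 at COL23A1 and 13 at BCL2L11, which codes for the pro-apoptotic protein BIM. In all, 73 members had a piece that overlapped by less than 100 bases, and 37 peaks that were not members had a second peak less than 100 bases away.

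The split peaks were wide. Their median width was 2586 bases (95% interval of the median 2485 to 2665, range 417 to 13999), against 778.5 bases over the other NC peaks. Of NC peaks under 1000 bases 0.251% were split, of those from 2000 to 2999 bases 18.3% (Wilson 95% interval 16.6 to 20.05), and of those of 6000 bases or more 50.4% (42.2 to 58.5). From 3000 to 3999 bases, 53 of 180 promoter peaks (29.4%) and 150 of 511 other peaks (29.4%) were split. The intervals of promoter and other peaks overlapped in every class but that from 1000 to 1999 bases, where 6.14% (5.21 to 7.22) and 4.46% (3.89 to 5.12) were split. A peak has more room for a gap the wider it is, and the intervals cover counting error over regions only.

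**Figure D1:**
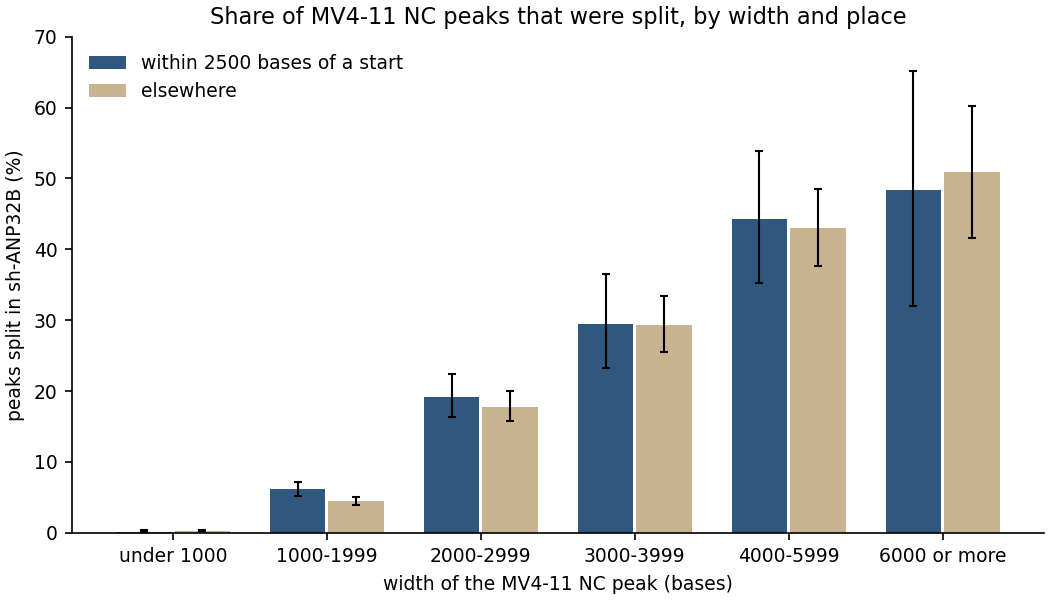
Share of MV4-11 NC peaks split in the sh-ANP32B list (vertical axis, percent) by peak width in bases (horizontal axis), for peaks within 2500 bases of a canonical start and for all others, with Wilson 95% intervals as error bars. The share rises from under 1% below 1000 bases to 48.4% at promoters and 50.9% elsewhere at 6000 bases or more. The error bars of both kinds overlap in every class but that from 1000 to 1999 bases.

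The members were spread over all 23 chromosomes examined, with shares of NC peaks split between 3.86% on chromosome 8 and 6.22% on chromosome 9. Some genes held several members. Those named were picked for this after their counts were seen, so the counts are descriptions beside the 4.81% over all NC peaks. RAPGEF1, a guanine nucleotide exchange factor, held 6 among 32 NC peaks in its span, RXRA, the retinoid X receptor alpha, 5 among 27, RUNX1, a transcription factor of blood stem cells, 4 among 36, and FLI1, an ETS factor of the blood lineage, 3 among 10. Further genes with at least 3 included ANKRD44 with 4 among 9, CMIP with 4 among 20, ARHGEF10L with 3 among 6 and MAD1L1 with 4 among 51.

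Together the members covered 3.57 Mb. Of these, 73.0% stayed under sh-ANP32B peaks, 17.7% (631692 bases) fell into inner gaps and 9.33% were trimmed at the outer ends. Per member, a median of 71.6% of the bases was left (70.4 to 72.8), from 9.83% to 97.1%. NC peaks with 1 sh-ANP32B peak that itself met no other NC peak kept a median of 84.8%. With only peaks of at least 2000 bases on both sides, the medians were 75.8% in members and 89.8% in the 1-to-1 peaks. The outer ends did not follow this order, since members of that width were trimmed by a median of 216 bases (193 to 242) and the 1-to-1 peaks by 290.5 (272 to 309). In 137 members (11.6%) less than 50% was left, and in 68 at least 90%. The larger or largest piece held a median of 67.9% of what was left.

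The inner gaps had a median length of 396 bases (384 to 406, range 276 to 2156). Of the 1311, 495 (37.8%) were 358 bases or shorter, 401 (30.6%) reached 500 bases and 58 (4.42%) reached 1000. In members with 2 pieces the middle of the gap fell between 40% and 60% of the NC peak's width in 35.6%, into its first 20% in 5.75% and into its last 20% in 5.66%. Gaps at promoters and elsewhere were of like length, with medians of 391 and 396.5 bases.

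**Figure D2:**
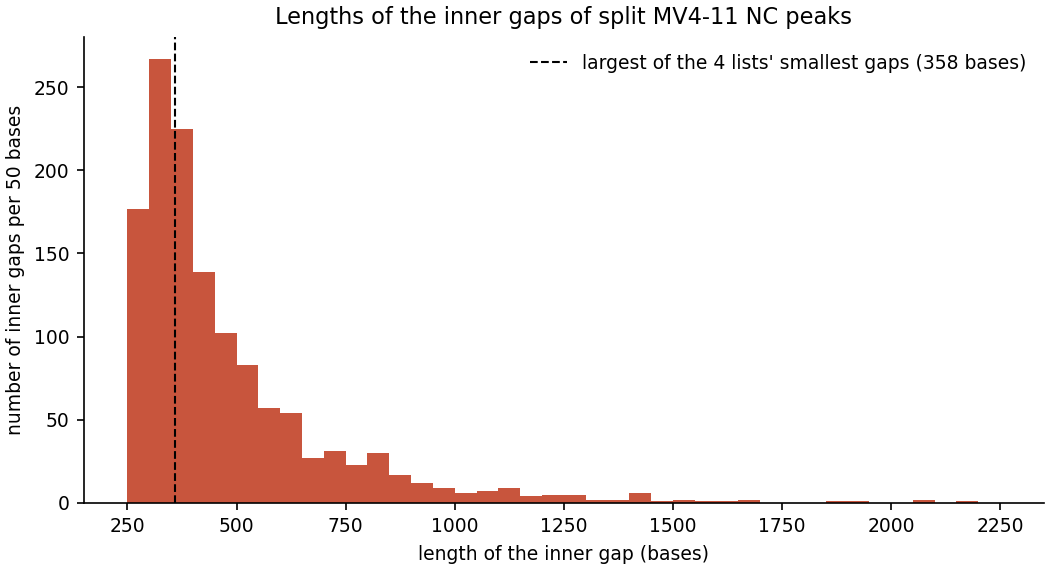
Number of inner gaps (vertical axis, per bin of 50 bases) by gap length in bases (horizontal axis) over the 1311 gaps of the 1179 members. The dashed line marks 358 bases, the largest of the shortest gaps of the 4 lists. 495 gaps lie at or below it, and the tail reaches 2156 bases.

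The member with the most pieces lay over the start of ZBTB7B (chr1:154999866-155012068), which codes for a zinc finger transcription factor that directs helper T cell fate. Its 12203 bases in the NC list became peaks of 2213, 446, 2845, 2162 and 2037 bases in the sh-ANP32B list, with 79.5% left. The longest of its gaps was 747 bases. Kasumi-1 held a single peak across the whole region in both lists, 13938 bases wide in NC and 13819 in sh-ANP32B.

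The members with 4 pieces named here were the 7 widest of 12. GNAI2 (chr3:50239757-50246838, a G protein alpha subunit) kept 76.8% of 7082 bases, and its longest gap of 848 bases lay in intron 1. The 7082 bases were wholly under 1 peak in both Kasumi-1 lists. A wide peak inside ENSG00000258539 on chromosome 10 (8250 bases, 81.9% left) and one in intron 1 of C16orf74 (5151 bases, 77.0% left) were also wholly covered by 1 Kasumi-1 peak in both lists. In contrast, the intergenic member nearest to VSIG4, which codes for a complement receptor of macrophages, kept 74.6% of 10036 bases in MV4-11 but had only 994 bases under Kasumi-1 NC peaks. ANKS1A (8025 bases, 75.7% left) and COL18A1, the gene of collagen XVIII (6264 bases, 84.4% left), were covered in part in Kasumi-1, with 3212 and 1505 bases under NC peaks. SNRK (chr3:43286243-43291976), a kinase related to AMPK, kept 69.4% of 5734 bases, and its start lay in a piece.

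The most bases in gaps, 2569, were lost near GNAS (chr20:58809822-58819340), where 9519 bases became pieces of 2012, 498 and 3999 bases. At this locus the Kasumi-1 lists also held 2 peaks each, of 3936 and 4041 bases in NC and of 4011 and 3994 in sh-ANP32B. VAC14 followed among genic members with 2308 gap bases (8954 bases, 62.6% left) and NACC2 with the longest single gap, 2156 bases between pieces of 2137 and 1148 bases. In Kasumi-1 VAC14 lay under 1 peak of 9178 bases in NC and 9852 in sh-ANP32B, whereas the NACC2 member was covered over 3464 of 5409 bases in NC. An intergenic member with INSIG1, a sterol-regulated protein of the endoplasmic reticulum, as the nearest start had a gap of 2057 bases and lay wholly under 1 Kasumi-1 peak. Members near SLC9A8, an endosomal sodium/proton exchanger (4948 bases, 35.95% left), and in THBS4, a thrombospondin (4420 bases, 40.5% left), had the least left of these 8, and each met 2 Kasumi-1 NC peaks. The eighth of this group, in intron 44 of VPS13B (5265 bases, 58.8% left), met no Kasumi-1 peak at all.

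Of the members, 384 (32.6%, 30.0 to 35.3) lay within 2500 bases of a canonical start of a protein-coding gene, against 29.4% of all NC peaks. With peaks of at least 2000 bases only, the shares were 29.6% in members and 30.5% in the others. By the middle of each gap, 564 gaps (43.0%) were in introns, 370 (28.2%) within 2500 bases of a start, 290 (22.1%) between protein-coding genes and 35 in exons outside the promoter window. The remaining 52 lay in a gene but outside its canonical transcript.

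Where a member held a start, the middle of the nearest gap lay within 500 bases of it in 143 of 303 (47.2%, 41.6 to 52.8). Promoter members had a median width of 2326.5 bases, which limits how far an inner gap can lie from a start inside them. Whether gaps lay closer to starts than the widths alone would give was not tested. The 303 members with a start inside held 357 starts, of which 243 (68.1%) stayed in a piece, 86 (24.1%, 19.9 to 28.8) fell into an inner gap and 28 (7.84%) into a trimmed end. In 1-to-1 NC peaks of at least 2000 bases, 612 of 683 starts (89.6%) stayed under the sh-ANP32B peak. The gap nearest to a start held it in 80 of the 303 members (26.4%, 21.8 to 31.6), lay wholly downstream in 146 (48.2%) and wholly upstream in 77 (25.4%). The NC peaks also reached further downstream, with 64.1% of the 357 starts covered at 1000 bases and 51.0% at -1000 bases. The part of this reach in the counts was not tested. The middle of the downstream gaps lay at a median of 751.25 bases along the gene, that of the upstream gaps at -663 bases, and that of the gaps over the start at 15 bases.

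Along the 357 starts, sh-ANP32B coverage dipped just upstream of the start and fell again downstream, and the share in an inner gap rose at both places. At -50 bases, 97.5% of the starts were under a NC peak and 63.0% under a sh-ANP32B peak, and 26.6% were in an inner gap. At 150 bases, 78.7% were under a sh-ANP32B peak and 17.6% in an inner gap. At 450 bases the share in an inner gap was 24.4% again. In the other NC peaks of at least 2000 bases, with 703 starts, coverage in sh-ANP32B was 87.6% at -50 bases and 91.5% at 150 bases. The lower level in members follows from the rule, which picked peaks with gaps. An inner gap needs a piece on both sides, so the rule also holds gaps away from the ends of a peak, and their place along the gene is given as a description.

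**Figure D3:**
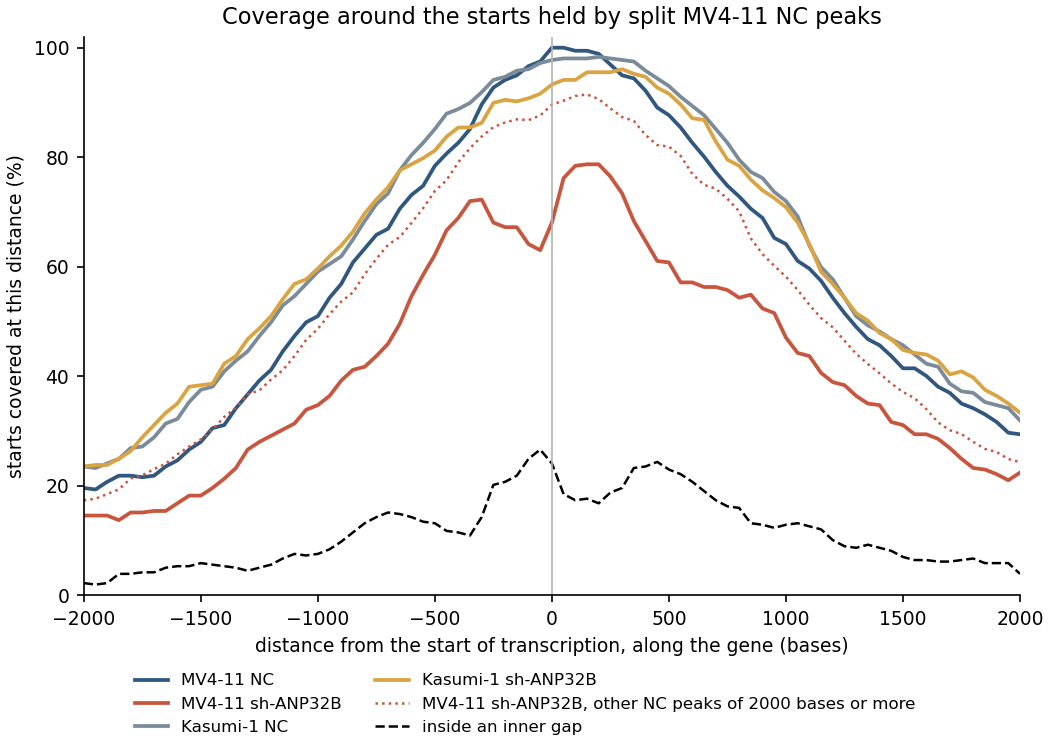
Percent of the 357 starts held by members that were under a peak of each list (solid lines) or in an inner gap (dashed line), by distance from the start along the gene in bases, with the 703 starts in other NC peaks of at least 2000 bases for sh-ANP32B as a dotted line. The MV4-11 sh-ANP32B line dips to 63.0% at -50 bases and rises to 78.7% at 150 bases, while the Kasumi-1 NC line is at 97.2% and 98.0% there.

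Divergent gene pairs, which share a promoter and are transcribed away from each other, were held by 32 of the 303 members with a start (10.6%) and by 13 of the 80 with a gap over a start (16.2%, 9.75 to 25.8). In 1 of the 80, both starts of the pair lay in the gap. The intervals of these shares overlap.

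The longest gap over a start was that of DNAJB6 (chr7:157336509-157338527). Its NC peak of 2019 bases was replaced by peaks of 339 and 936 bases, and the gap of 1001 bases reached from 397 bases before the start to 603 bases after it. Only 98 bases of the NC peak lay under the upstream piece. In Kasumi-1 both lists held 1 peak over the start, of 2835 bases in NC and 3145 in sh-ANP32B.

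HP1BP3, which codes for a heterochromatin-binding protein, had a gap of 918 bases, 279 before and 638 after the start, in a peak of 1969 bases (52.9% left). EGLN2 lost the start to a gap of 902 bases and kept 60.0% of 2626 bases. PIK3R2, the p85 beta subunit of PI3 kinase, kept 26.0% of 2204 bases around a gap of 939 bases, the least of the promoters named here, and ANKRD17 kept 56.7% of 2157 bases around a gap of 934. At TSPAN4, a tetraspanin, the gap over the start had 878 bases in a member of 3 pieces, and at MROH6 it had 876 bases. At each of the promoters with the longest gaps named here, Kasumi-1 had 1 peak in each list.

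**Figure D4:**
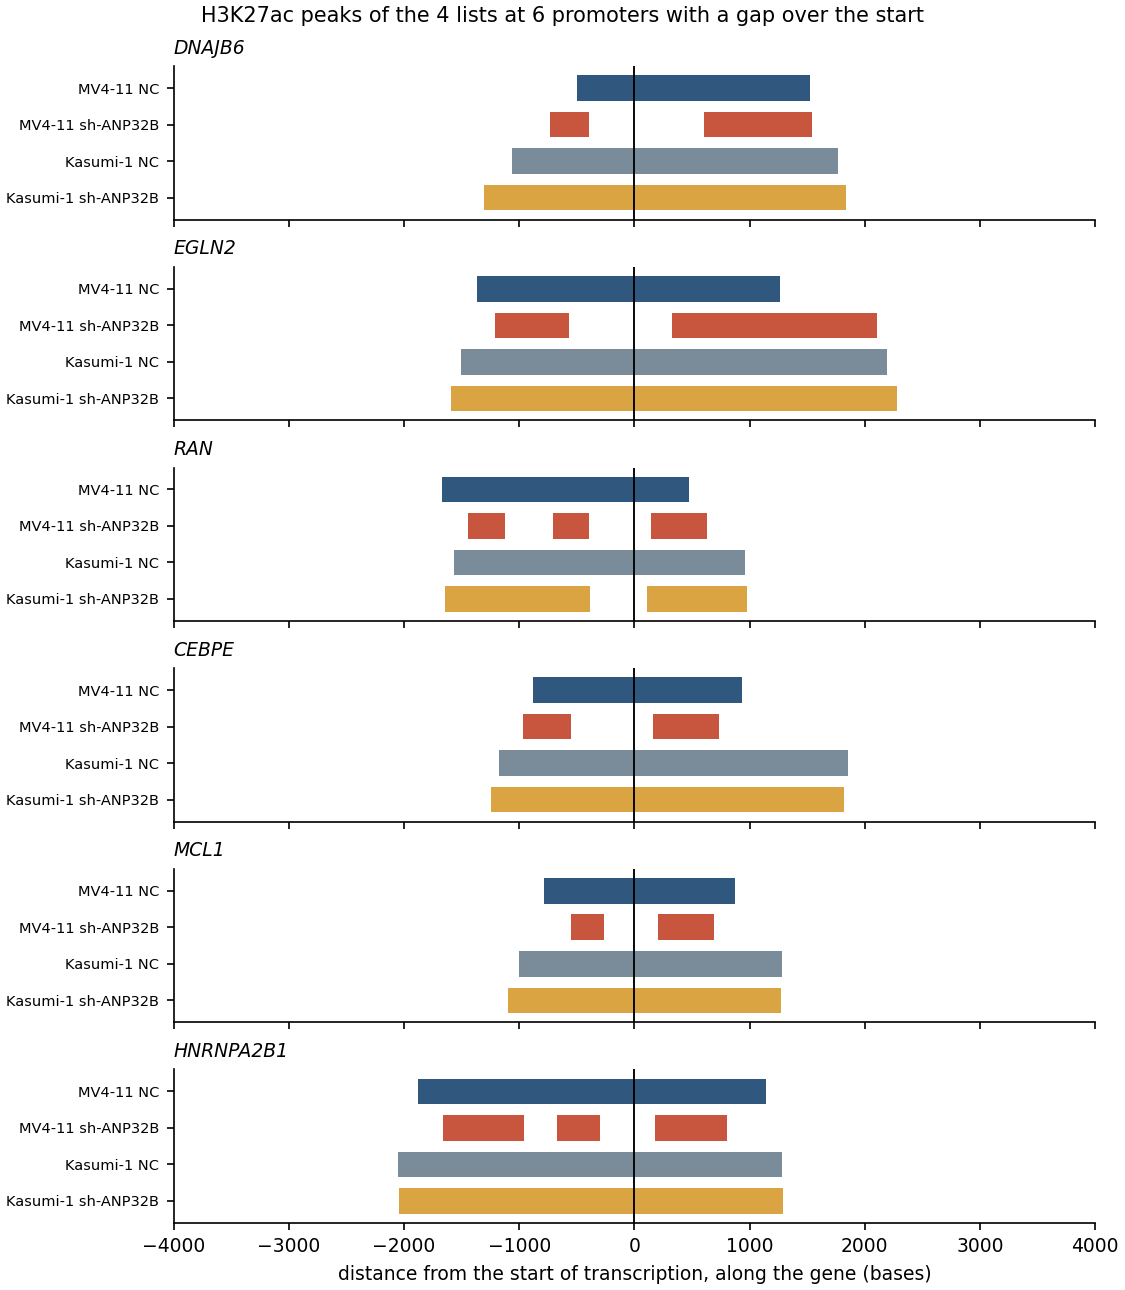
Peaks of the 4 lists (bars) at 6 promoters with a gap over the canonical start, drawn by distance from the start along the gene in bases. The start (vertical line) is bare in the MV4-11 sh-ANP32B list at all 6 and lies under 1 peak in the Kasumi-1 NC list. In Kasumi-1 sh-ANP32B only RAN is split, into peaks of 1258 and 863 bases.

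The members that fall on known gene groups were counted next. Over all protein-coding genes, 7158 had a MV4-11 NC peak within 2500 bases of the canonical start, and at 457 of them (6.38%) such a peak was a member. The lists were chosen with earlier results of these data known and are described by counts alone.

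Among the genes the study displayed or followed, 1 of the 9 protein-coding genes with a NC promoter peak had a split one, ANP32A, the paralog of ANP32B. Its 4957 bases (chr15:68817308-68822264) became peaks of 3972 and 457 bases. The gap of 918 bases lay just upstream of the start, which stayed in the larger piece, and 81.5% was left. In Kasumi-1 the locus held 1 peak in each list, of 4667 bases in NC and 4687 in sh-ANP32B. These peaks did not span the MV4-11 gap. They ended inside it, at 68821700 in NC and 68821739 in sh-ANP32B, and did not reach the smaller MV4-11 piece. MYC, the transcription factor, and CCNB1, the mitotic cyclin B1, each had 1 NC peak and none in the MV4-11 sh-ANP32B list, so neither could be a member. SNORA77B, a small nucleolar RNA, showed the same pattern in MV4-11. CTPS1, MCM6, PLK1 and ANP32B had 1 peak in both MV4-11 lists, and RANBP1 and TRMT2A had 2 in both. CDK2 and BCL2 had no peak in either MV4-11 list.

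Of 12 genes of blood stem cell transcription factors with a NC promoter peak, 5 had a split one (41.7%, 19.3 to 68.0), against 6.38% over all genes. They were MEIS1, the HOX cofactor, FLI1, LDB1, which bridges GATA1 and TAL1 complexes, BCL11A, the repressor of fetal globin, and MYB. All 5 members were wider than the median member, from 3259 to 4992 bases, and the share of split peaks rose with width over all NC peaks. MEIS1 kept 85.8% of 4992 bases and FLI1 85.8% of 3839, with gaps of 286 and 287 bases, shorter than any gap the NC list could hold. LDB1 kept 60.5% of 4262 bases and BCL11A 65.3% of 3595. Genes were counted by the place of the peak and not of the gap. At MEIS1 the middle of the gap lay in intron 4, 6274 bases from the start. At BCL11A it lay in intron 1, 2715 bases from the start. MYB (chr6:135180227-135183485) kept 57.1% of 3259 bases as peaks of 493 and 1798 bases, and its gap of 361 bases lay downstream of the start. Kasumi-1 had a single peak in both lists at all 5. At FLI1, LDB1, BCL11A and MYB the Kasumi-1 peaks spanned the gap. At MEIS1 the Kasumi-1 peaks ended inside the gap, at 66441322 in NC and 66441343 in sh-ANP32B. They did not reach the piece beyond it.

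MEIS1 and MYB are also the 2 of 15 KMT2A fusion target genes with a split promoter peak (13.3%, 3.74 to 37.9). Among myeloid transcription factors the count was 3 of 18 (16.7%, 5.84 to 39.2): GFI1, a repressor needed for neutrophils, CEBPG, and CEBPE. GFI1 kept 82.7% of 7952 bases in 3 pieces of 1584, 2282 and 2707 bases. CEBPG kept 79.2% of 2720 bases. CEBPE (chr14:23118319-23120134) kept 49.7% of 1816 bases as peaks of 575 and 419 bases, with 551 bases of the gap before the start and 160 after it, and lay wholly under 1 Kasumi-1 peak in each list.

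Of 20 genes of histone acetylation enzymes and readers with a NC promoter peak, 4 had a split one (Wilson 95% interval 8.07% to 41.6%): NCOA2, a coactivator, KAT8, which acetylates histone H4, BRD3, a bromodomain reader, and HDAC3, a deacetylase. NCOA2 kept 86.6% of 2230 bases and KAT8 70.6% of 2078. At KAT8 the gap of 358 bases ended just upstream of the start. BRD3 kept 53.8% of 1857 bases and HDAC3 83.0% of 1840, the latter with the start of RELL2 on the other strand in the same peak.

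In the MYC target genes 2 of 51 (3.92%, 1.08 to 13.2) had a split peak, SRM, the spermidine synthase, and RAN. SRM kept 75.7% of 2570 bases. RAN (chr12:130870396-130872539) kept 44.9% of 2144 bases as peaks of 314, 316 and 489 bases. Its gap of 533 bases had 392 before and 140 after the start, and RAN was also split in Kasumi-1, where a NC peak of 2525 bases became peaks of 1258 and 863 bases. The 5 lists of MYC targets, cell cycle, splicing, chaperone and ribosomal protein genes are the housekeeping groups of this set. Cell cycle genes counted 2 of 33 (6.06%), E2F2 with 87.1% of 3570 bases left and CDC20, the activator of the anaphase-promoting complex, with 49.3% of 1556. Splicing factor genes counted 2 of 31 (6.45%): HNRNPA2B1, which shares its peak with the divergent gene CBX3, kept 56.1% of 3027 bases in 3 pieces with its start in a gap of 475 bases, and PTBP1 kept 53.8% of 2685 bases with a gap of 786 bases downstream of the start. Chaperone genes counted 2 of 20, TCP1, with 72.8% of 2081 bases left, and DNAJB6. Cytosolic ribosomal protein genes counted 5 of 76 (6.58%): the 2 widest were RPS12, with 78.1% of 2019 bases left, and RPL34, with 66.5% of 1829 left, and the others were RPS13, RPL27 and RPS2. At RPL34, RPS13 and RPS2 the start lay in the gap.

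The remaining lists had 1 split promoter peak each. MCL1 was the one among 22 STAT5 and ERK response genes (4.55%), with 46.8% of 1652 bases left as peaks of 488 and 285 bases and the start in a gap of 467 bases. JUNB, an AP-1 subunit, was the one among 17 AP-1 and NF-kappaB genes (5.88%), with 85.9% of 3237 bases left. TNFRSF10B, the TRAIL receptor DR5, was the one among 18 p53 target genes (5.56%), with 78.8% of 1947 bases left, and ITGB2, the integrin beta chain of leukocytes, the one among 21 myeloid surface and granule genes (4.76%), with 90.3% of 3345 bases left. MCL1 and JUNB lay under 1 peak in each Kasumi-1 list, of 2280 and 2367 bases at MCL1 and of 8882 and 10194 at JUNB.

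The same loci were then read in the Kasumi-1 lists, which the rule did not use. Of the 1179 members, 808 (68.5%, 65.8 to 71.1) met exactly 1 Kasumi-1 NC peak, 198 met 2, 44 met 3 or more and 129 (10.9%) met none. In the Kasumi-1 sh-ANP32B list the numbers were 798, 208, 53 and 120. With peaks of at least 2000 bases, 66.1% of members (62.7 to 69.2) and 74.1% of the other NC peaks (72.3 to 75.8) met exactly 1 Kasumi-1 NC peak, and 22.02% (19.3 to 24.99) and 16.2% (14.8 to 17.8) met 2. This floor does not match the widths, since the split share rose from 18.3% at 2000 to 2999 bases to 50.4% at 6000 or more. The part of width in these shares was not tested. Members at a promoter were seldom without a Kasumi-1 peak, 7 of 384 (1.82%), against 122 of 795 elsewhere (15.3%).

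Of the 1311 gaps, 737 (56.2%, 53.5 to 58.9) lay wholly under a Kasumi-1 NC peak and 344 (26.2%) had no base under one. The first share was 78.4% (74.2 to 82.1) at promoter members and 45.7% (42.5 to 49.0) elsewhere. In bases, Kasumi-1 NC peaks covered 62.5% of the gaps and 71.1% of the bases kept in MV4-11. At promoter members these shares were 82.7% and 85.9%, and away from promoters 53.4% and 65.2%, so that gap bases were less covered than kept bases of the same peaks in Kasumi-1 too. Of the 86 starts that fell into a MV4-11 gap, 84 (97.7%) were under a Kasumi-1 NC peak and 76 under a Kasumi-1 sh-ANP32B peak. Of the 243 starts in pieces, 238 (97.9%) were under a Kasumi-1 NC peak, a like share.

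**Figure D5:**
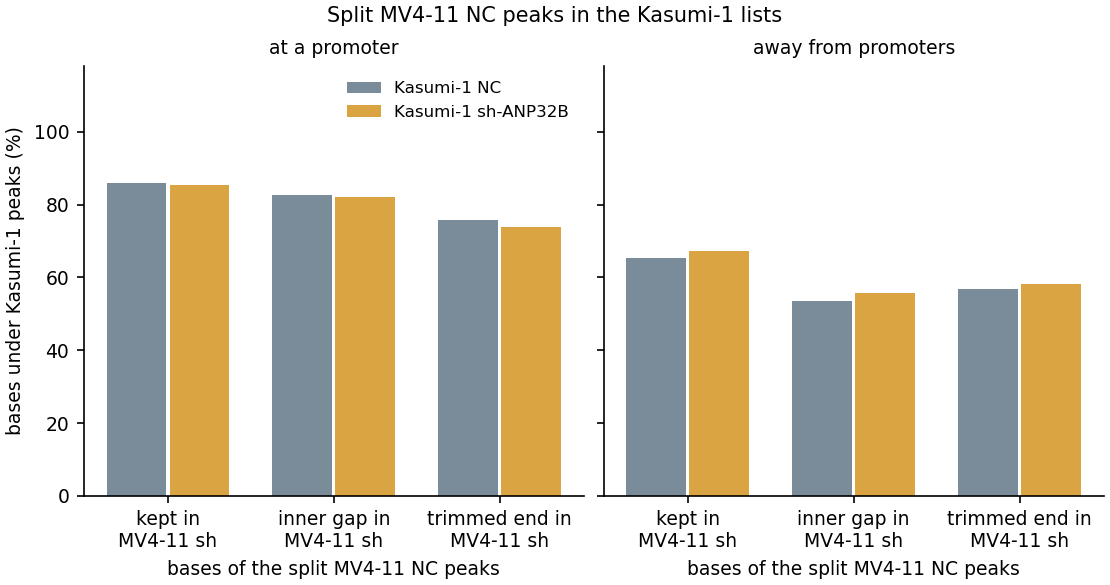
Percent of the members' bases under Kasumi-1 NC and sh-ANP32B peaks (vertical axis), for bases kept in the MV4-11 sh-ANP32B list, bases in its inner gaps and bases trimmed at the ends, at promoters (left) and away from them (right). At promoters the NC values are 85.9%, 82.7% and 75.8%, and away from promoters 65.2%, 53.4% and 56.7%. Both Kasumi-1 lists give like values.

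Where a member met 2 or more Kasumi-1 NC peaks, a gap between those peaks overlapped a MV4-11 gap in 175 of 242 (72.3%, 66.4 to 77.6). These gaps were present in Kasumi-1 with the control hairpin. Over all NC peaks, 736 of 24491 (3.01%) met a Kasumi-1 NC peak that the Kasumi-1 sh-ANP32B list split. Among members the number was 58 (4.92%, 3.82 to 6.31), and with at least 2000 bases it was 5.41% of members (4.06 to 7.19) and 4.88% of the others (4.09 to 5.82), so that the intervals overlapped. In 29 of the 58 a gap inside the split Kasumi-1 NC peak lay wholly inside the member, and in the other 29 none did. In 16 of the 58 the Kasumi-1 gap overlapped a gap in MV4-11.

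Of the 1050 members with a Kasumi-1 NC peak, 446 had more bases covered in Kasumi-1 sh-ANP32B, 285 fewer and 319 the same, with a median change of 0 bases. In MV4-11 the same measure, which the rule used, had a median of -675 bases. The whole Kasumi-1 sh-ANP32B list also covered more bases than the Kasumi-1 NC list, 33622316 against 32662036. The same counts over the other NC peaks are not given here.

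The 8 widest of the 58 members that met a Kasumi-1 NC peak split by its sh-ANP32B list were led by a region in intron 4 of RXRA (chr9:134401313-134413977). It kept 97.1% of 12665 bases in MV4-11, with a gap of 300 bases, and in Kasumi-1 a NC peak of 10959 bases met sh-ANP32B peaks of 2009 and 9930 bases. The Kasumi-1 split lay at the other end of the region. At ADAM8 (chr10:133274557-133281677), a metalloproteinase of myeloid cells, the gaps met in place: the start lay in a gap in MV4-11, between pieces of 728 and 4339 bases, and in Kasumi-1 between peaks of 2029 and 4887 bases. SNRK was in 4 pieces in MV4-11 and in peaks of 464 and 362 bases in Kasumi-1 sh-ANP32B. There too the Kasumi-1 gap overlapped a MV4-11 gap, the one of 287 bases. GPR35, a G protein-coupled receptor (5961 bases, 84.2% left), was split in both lines at different places. ENSG00000283782 (8514 bases, 94.4% left) met 3 Kasumi-1 NC peaks, of which the middle one, of 3977 bases, met sh-ANP32B peaks of 2618 and 876 bases. At the other 3 the gap that the Kasumi-1 sh-ANP32B list left in a Kasumi-1 NC peak did not lie wholly inside the member. SLC16A3, the lactate exporter MCT4 (5669 bases, 93.6% left), lay wholly under 1 peak in both Kasumi-1 lists. HIP1, which binds clathrin (5676 bases, 86.5% left), had 5587 bases under 1 Kasumi-1 sh-ANP32B peak. BRI3 (5392 bases, 90.1% left) met 2 peaks in each Kasumi-1 list, with the same gap between them in NC and sh-ANP32B. Of these 8, SNRK kept the least in MV4-11, 69.4%.

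Base composition and short motifs were read in the central 275 bases of every gap, of every piece and of the other NC peaks, on build hg38. Away from promoters, the gaps were poorer in GC than the pieces on their sides, with medians of 45.1% (44.4 to 46.2, n = 890) and 49.8% (49.1 to 50.5, n = 1685). At promoters the medians were 56.7% (54.9 to 58.9, n = 421) and 60.7% (59.3 to 61.5, n = 805). The middle of the other NC peaks of at least 2000 bases had 49.5% away from promoters and 62.2% at promoters. The ratio of observed to expected CpG at promoters was 0.53 in gaps and 0.53 in pieces, and 0.66 in the other wide NC peaks.

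Of the motifs searched on both strands, TGTGGTT (RUNX factors), GGAAGTG (ETS factors) and TGAGTCA (AP-1, the same site as TGACTCA on the other strand) are those of blood cell enhancers. Away from promoters, GGAAGTG was found in 4.16% of the gaps (3.03 to 5.68), 9.20% of the pieces (7.91 to 10.7) and 10.3% of the other NC peaks (9.80 to 10.7). TGAGTCA was found in 4.27% of the gaps (3.13 to 5.81), 7.60% of the pieces (6.43 to 8.96) and 10.9% of the other NC peaks (10.4 to 11.4). TGTGGTT was found in 5.17% (3.897 to 6.83), 6.35% (5.28 to 7.62) and 8.56% (8.14 to 8.998), where the intervals of gaps and pieces overlapped. TATAAA, the TATA box and a string of A and T, went the other way, with 23.9% of the gaps (21.2 to 26.8) and 12.3% of the pieces (10.9 to 14.0). CCAAT (NFY) was in 31.2% of the gaps and 25.3% of the pieces.

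At promoters, GGGCGG was in 39.4% of the gaps (34.9 to 44.2) and 38.5% of the pieces (35.2 to 41.9), against 51.4% of the other NC peaks (50.2 to 52.6). In the other NC peaks of at least 2000 bases it was in 44.5% (40.9 to 48.1), an interval that overlapped those of gaps and pieces. GGAAGTG was in 8.55% and 10.7%, CACGTG (the E-box of MYC and USF) in 4.99% and 5.84%, TATAAA in 10.5% (7.88 to 13.7) and 5.22% (3.88 to 6.98), and GCATGCGC (NRF1) in 1.19% and 1.61%. Base composition moved with these shares, and its part in them was not tested. A match is a string of letters and not a bound site, and the 275 bases at the middle of a longer gap or piece leave out the rest of it.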

How the data were processed

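H3K27ac CUT&Tag peak lists of MV4-11 and Kasumi-1, each with NC and sh-ANP32B, were analysed. The authors aligned reads to hg38 with Bowtie2, removed PCR duplicates with Picard, merged replicates with samtools and called peaks with MACS (study methods: MACS2; submitters' processing notes: MACS3 3.0 with Bowtie2 2.4.4). Whether IgG served as the control for calling is not given in the sources used here. The deposited lists give start, end and length in bases, counted from 1, with no score.

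The members and the 14 gene lists were chosen with earlier results of these data known. A member is a NC peak with at least 2 overlapping sh-ANP32B peaks (at least 1 base each). Pieces are those peaks and inner gaps the stretches between them. Starts are canonical starts of protein-coding genes in GENCODE v44, the promoter window reached 2500 bases to both sides, and sequence came from hg38. Genes were named by fixed rules: the 8 members with most pieces, with most gap bases, with the longest gap over a start and widest among those meeting a Kasumi-1 NC peak split in Kasumi-1, the 2 widest of each gene list, the genes the study followed and the members nearest to the threshold. Further members of these lists, the genes with several members and the sequences shown were picked after their values were seen. Scripts ran in Python 3.11.15 and were tested on simulated peaks. Shares have Wilson 95% intervals and medians order-statistic intervals, which cover counting error over regions only. The depth is unknown. No test was run, since each group has 1 list. Some items under these rules are not reported here.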

Additional observations from a re-analysis of the deposited data

Results flagged for a closer look

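Sequences outside chromosomes 1 to 22 and X were left out of the comparisons. They held 886 MV4-11 NC peaks, of which 38 overlapped 2 or more sh-ANP32B peaks, 1 on chromosome Y and 37 on other sequences of the build. These 38 were found in data the report does not use, and peaks there may repeat loci of the main chromosomes, which was not tested.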

How the results depend on the processing

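The results were recomputed under other settings, though not every result under every setting. Of these values, 23 stayed within the interval of the reported value, or within 1.5 times the reported count, and 17 moved. Joining all lists across gaps of up to 358 bases gave 899 members, and 30.6% of NC peaks at least as wide as the median member were split (32.8% as reported). It left a median of 69.96% of a member's bases, a median gap of 514 bases and 52.5% of gaps wholly under Kasumi-1 NC peaks. Joining across 500 bases gave 720 members, and these values were 29.4%, 66.4%, 680.5 bases and 53.1%, with 29.9% of members at a promoter. With NC peaks of at least 2000 bases only, 813 of 3209 were members. Of those at least as wide as the median of these members, 38.02% were split. A median of 75.8% of the bases was left, the median gap was 418 bases and 29.6% of members were at a promoter. A promoter window of 1000 bases put 29.3% of members at a promoter. With any annotated protein-coding start, 42.3% of members were at a promoter and 27.7% of these had a gap over a start. Longer joining gaps take out short gaps by construction, and the cause of the other shifts was not tested. The share of promoter members with a gap over a start lay between 17.4% and 21.9% in the alternatives that kept the canonical starts. No paired analysis was possible because each group has 1 list and no result comes from a test. Without read totals, the limit that depth sets on a gap is unknown.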
